A study of Mus musculus with 30 samples.

Results

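Transcripts of 9 genes of the insulin, growth hormone and phosphatidylinositol 3-kinase (PI3K) pathway were measured in C2C12 myotubes, the multinucleated muscle cells that form when the mouse myoblast line C2C12 stops dividing and fuses. The genes were chosen by name, and all 9 were among the 15907 genes tested, out of 55487 in the count table. They were the insulin receptor Insr, the growth hormone receptor Ghr, the insulin receptor substrates Irs1 and Irs2, the PI3K subunits Pik3ca and Pik3r1, the PI3K inhibitor Pik3ip1, and the kinases Akt1 and Akt2. Wild-type myotubes were differentiated for 4 days in low glucose medium with 2% horse serum and then kept for 4 more days in one of 5 media. The 2% HS group stayed in 2% horse serum. The other groups received no serum, which is serum deprivation (SD), either alone or with 100 nM metformin (MET), with 500 nM leucine (LEU), or with both (MET+LEU). Each group had 6 libraries of ribosomal RNA-depleted total RNA, 30 in all. All libraries came from 1 immortal line in culture, and the labels do not say whether the 6 libraries of a group came from separate cultures, so p-values measure the spread between these libraries, which may be technical.

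Insulin binds its receptor at the cell surface, and the activated receptor phosphorylates the docking proteins Irs1 and Irs2. These recruit PI3K, a dimer of a catalytic and a regulatory subunit, which makes the membrane lipid PIP3, and PIP3 brings the kinase Akt to the membrane to be activated. In muscle, Akt drives glucose uptake, glycogen storage and protein synthesis and holds back FoxO transcription factors, which switch on genes of protein breakdown. Growth hormone acts through its own receptor and the kinase Jak2, and a well known target of this pathway is the growth factor Igf1, whose receptor feeds into the same PI3K branch. The comparisons ask whether the transcripts of this pathway differ after serum is taken away, and whether they differ again when metformin, leucine or both are present.

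Libraries held between 12784960 and 19604103 counts on genes. Myotube identity was checked with 10 marker genes, all of which had counts in every group. Their summed level came mostly from the giant sarcomere gene Ttn. It was between 39210 and 42137 CPM (counts scaled to a common library total) in 2% HS and between 32416 and 34863 in SD. In MET it was between 29007 and 32688 CPM, in LEU 35774 and 37507, and in MET+LEU 31223 and 39746. From 2% HS to SD the means of Myog, Myh3 and Des were higher, and those of the other myotube markers lower, with Ttn at 30972 and 24592 CPM. The part of these levels in the differences between groups was not tested. Of 5 adipocyte markers, Lep and Cfd were at 0 in all libraries and the summed level was at most 0.268 CPM. The 6 markers of unfused or cycling myoblasts, all with counts in every group, summed to between 356 and 383 CPM in 2% HS, 316 and 357 in SD, 291 and 358 in MET, 292 and 330 in LEU, and 274 and 300 in MET+LEU, where every library lay below those of SD and 2% HS. These markers did not move together. From 2% HS to SD the mean of Pax7 went from 190 to 147 CPM and that of Myf5 from 19.3 to 17.7. Means of Mki67 (76.8 to 79.5), Top2a (57.3 to 63.0) and Cdk1 (12.9 to 14.3) were higher in SD, and Ccnb1 was at 10.0 in both. In MET+LEU the mean of Pax7 was 153 CPM and that of Myf5 17.4. Mki67 (62.2), Top2a (40.4), Ccnb1 (5.36) and Cdk1 (9.32) had lower means there than in SD. The 4 osteoblast markers summed to between 108 and 135 CPM over all libraries, and their group ranges overlapped. Almost all of this sum was Runx2, since Bglap, Sp7 and Ibsp reached at most 0.308, 0.539 and 0.130 CPM in any library. One library, MET+LEU replicate 6, stood apart: nuclear ribosomal RNA took 5.85% of its counts and mitochondrial ribosomal RNA 7.64%, against at most 1.96% and 0.760% in any other library. Among the MET+LEU libraries it had the highest CPM of Ghr, Pik3ca and Pik3r1 and the lowest of Irs2, Pik3ip1, Akt1 and Akt2, so calls that involve MET+LEU are also given without it where they change. In RNA from whole cultures, fewer cells of a type and less RNA per cell cannot be told apart.

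Levels between genes were compared as CPM per kilobase of exon, with libraries scaled by the trimmed mean of M-values (TMM). Akt1 had the highest level, at 60.6 ± 4.23 CPM per kilobase (standard deviation over 30 libraries), and it was above the next gene in all 30. Irs1 followed with 38.7 ± 1.00 and Akt2 with 35.6 ± 2.94, and these neighbours overlapped, with Irs1 higher in 23 of 30 libraries. Ghr (15.8 ± 1.23) and Pik3r1 (15.1 ± 1.29) did not differ beyond their spread over all 30 libraries, and Ghr was the higher one in 17 of them. This order varied with the group, and in 2% HS every Ghr library (between 15.96 and 18.3 CPM per kilobase) was above every Pik3r1 library (between 12.8 and 13.6). Pik3ca was at 13.1 ± 0.399 and Insr at 8.42 ± 0.403. The lowest levels were those of Irs2 (5.90 ± 0.350) and Pik3ip1 (5.27 ± 0.400). Akt1 and Irs1 were thus the main transcripts of their families at these levels, and the ratio of Irs2 to Irs1 had group medians between 0.146 and 0.161. When the length of the longest protein-coding transcript was used in place of all exons, Akt2 (55.9) came before Irs1 (38.7), and Pik3ip1 (8.75) before Irs2 (5.90). With that length Ghr, at 34.3 ± 2.66, was also further from Pik3r1, at 21.5 ± 1.83.

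**Figure D1:**
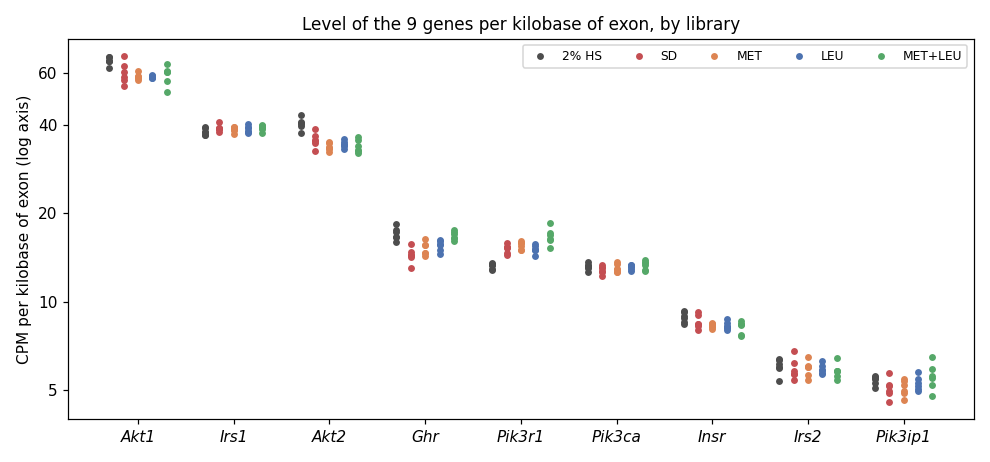
TMM-scaled CPM per kilobase of exon on a log axis for each of the 9 genes, with 1 point per library and 1 colour per group. Akt1 is highest, at 51.9 to 68.7 in every library, and Pik3ip1 and Irs2 are lowest.

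The genes lie on 8 chromosomes of the GRCm38 build: Insr at chr8:3122061-3279617 (minus strand), Irs2 at chr8:10984681-11008458 (minus), Ghr at chr15:3317760-3583492 (minus), Irs1 at chr1:82233101-82291416 (minus), Pik3ca at chr3:32397671-32468486 (plus), Pik3r1 at chr13:101680563-101768217 (minus), Pik3ip1 at chr11:3330401-3342971 (plus), Akt1 at chr12:112653821-112674884 (minus) and Akt2 at chr7:27591552-27640826 (plus). Genes on the opposite strand share 2822 exonic bases with Irs1, 162 with Irs2 and 91 with Pik3ip1. The strand setting of the counting is not given in the sources used here, so reads from these stretches may not be told apart. Pik3r1 makes regulatory subunits of several lengths, which counts per gene do not separate.

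Promoter windows of 300 bases, 250 before to 50 after an annotated start, were taken from RefSeq (build GRCm38.p6) and found for 8 of the 9 genes. The 4 printed here belong to the genes that passed a test in SD vs. 2% HS, each at the outermost of its listed starts and read 5′ to 3′ on the strand of the gene. Capitals mark matches, on either strand, to 6 motifs. The GC box was searched as GGGCGG. The CCAAT box was searched by the letters of its name. The TATA box, which places the start of transcription at some genes, was searched as TATAAA. The E-box that the muscle factors MyoD and myogenin prefer was searched as CAGCTG. The last 2 motifs belong to factors at the end of this pathway: the FoxO site was searched as GTAAACA, and the site of STAT5, which growth hormone activates, as TTCNNNGAA.
Ghr, chr15:3583303-3583602, minus strand: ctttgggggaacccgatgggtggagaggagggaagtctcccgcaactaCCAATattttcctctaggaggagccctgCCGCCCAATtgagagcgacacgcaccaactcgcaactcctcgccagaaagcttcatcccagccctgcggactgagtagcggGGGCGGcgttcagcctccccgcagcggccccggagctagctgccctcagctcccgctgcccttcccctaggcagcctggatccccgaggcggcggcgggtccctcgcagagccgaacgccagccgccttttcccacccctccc
Pik3r1, chr13:101768168-101768467, minus strand: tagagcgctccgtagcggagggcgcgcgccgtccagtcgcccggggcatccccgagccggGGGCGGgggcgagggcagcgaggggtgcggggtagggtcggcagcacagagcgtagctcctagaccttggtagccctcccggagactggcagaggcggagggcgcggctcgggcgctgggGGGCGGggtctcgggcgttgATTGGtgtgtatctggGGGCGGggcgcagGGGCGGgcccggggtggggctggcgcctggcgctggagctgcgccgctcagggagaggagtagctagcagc
Akt1, chr12:112674835-112675134, minus strand: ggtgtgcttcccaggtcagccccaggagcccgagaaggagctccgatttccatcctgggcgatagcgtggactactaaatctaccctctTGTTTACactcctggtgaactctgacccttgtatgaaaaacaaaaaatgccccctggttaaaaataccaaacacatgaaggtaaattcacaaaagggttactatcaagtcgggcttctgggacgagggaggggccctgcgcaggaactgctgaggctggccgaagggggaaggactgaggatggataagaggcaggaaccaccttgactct
Akt2, chr7:27591302-27591601, plus strand: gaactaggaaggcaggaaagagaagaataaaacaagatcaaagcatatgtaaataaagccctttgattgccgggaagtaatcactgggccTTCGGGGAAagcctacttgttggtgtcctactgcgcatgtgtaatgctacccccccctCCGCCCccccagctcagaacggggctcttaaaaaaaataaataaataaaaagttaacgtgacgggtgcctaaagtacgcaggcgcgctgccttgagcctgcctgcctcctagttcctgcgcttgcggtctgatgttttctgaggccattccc
The Ghr window held 2 GC boxes and 2 CCAAT boxes, one of which overlaps a GC box, and the Pik3r1 window held 4 GC boxes and 1 CCAAT box. In the Akt1 window 1 FoxO match was found, and in the Akt2 window 1 GC box and 1 STAT5 match. Of 32851 mouse windows of this length, 35.7% held a GC box, 37.4% a CCAAT box, 13.6% a TATA box, 16.3% the E-box, 3.65% a FoxO match and 8.30% a STAT5 match. A second listed Akt1 start, nearer to the gene body, had a window with 5 GC boxes, 2 of them overlapping. A match describes letters in the window and shows no binding.

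Serum deprivation was compared with 2% HS to ask which of the 9 transcripts differ after 4 days without serum. Of the 9 genes, 1 rose (Pik3r1) and 3 fell (Ghr, Akt1 and Akt2), and 5 did not pass the test, beside 27.8% of all genes called in this comparison, 13.9% higher and 13.9% lower (edgeR's quasi-likelihood test, Benjamini-Hochberg adjusted p under 0.05 over all genes tested). The differences were modest: the median absolute log2 fold change was 0.09 over the 9 genes and 0.14 over all genes tested. All 4 calls kept their direction and passed the threshold in 38 of 38 alternative analyses. The libraries of the 2 groups did not overlap for Ghr and Pik3r1, as was the case for 13.6% of all genes.

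Of the 2 receptors, Ghr fell and Insr did not pass the test. Ghr levels in 2% HS were between 144 and 166 CPM with a median of 154, and in SD between 118 and 143 with a median of 131. Every SD library lay below every 2% HS library. The group means were 154 ± 7.68 and 131 ± 7.91 CPM (± standard deviation, n = 6 each), so that Ghr fell by 15.4%, a log2 fold change of -0.24 (SE 0.04, adjusted p = 4.1e-06). Insr, which starts the insulin branch, was at 122 ± 5.07 CPM in 2% HS and 117 ± 6.26 in SD. Its log2 fold change was -0.05, with a 95% interval from -0.13 to 0.02 (adjusted p = 0.326), and the libraries of the 2 groups overlapped.

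Neither docking protein passed the test. Irs1 was at 348 ± 9.69 CPM in 2% HS and 357 ± 9.65 in SD, a log2 fold change of 0.04 with a 95% interval from -0.02 to 0.10 (adjusted p = 0.362). Irs2 was at 38.1 ± 2.33 and 37.3 ± 3.15 CPM, a log2 fold change of -0.03 with an interval from -0.14 to 0.08 (adjusted p = 0.733). The interval for Irs1 thus left out differences as large as that of Ghr, and so did the wider interval for Irs2.

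Within PI3K, the regulatory subunit rose and the catalytic subunit did not pass the test. Pik3r1, which encodes the regulatory subunit that holds the catalytic subunit and docks it to phosphorylated Irs proteins, was between 129 and 137 CPM in 2% HS (median 134) and between 145 and 159 in SD (median 154). All 6 SD libraries lay above all 6 2% HS libraries. The means were 133 ± 3.07 and 152 ± 5.34 CPM, an increase of 14.2% with a log2 fold change of 0.19 (SE 0.04, adjusted p = 4.3e-05). Pik3ca, which encodes the catalytic subunit p110 alpha, was at 119 ± 3.14 in 2% HS and 117 ± 3.62 CPM in SD (log2 fold change -0.04, 95% interval -0.10 to 0.03, adjusted p = 0.456). Pik3ip1, a transmembrane protein that inhibits PI3K, was at 23.04 ± 0.842 and 21.7 ± 1.64 CPM (log2 fold change -0.09, 95% interval -0.22 to 0.04, adjusted p = 0.316), and its lower counts, between 251 and 491 per library, gave it the widest interval of the 9 genes.

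Both Akt genes fell. Akt2, the isoform most tied to glucose uptake, was between 268 and 310 CPM in 2% HS (median 289) and between 233 and 277 in SD (median 253). Of the SD libraries, 5 of 6 lay below every 2% HS library. The means were 289 ± 13.4 and 254 ± 14.5 CPM, so that Akt2 fell by 11.99%, a log2 fold change of -0.18 (SE 0.04, adjusted p = 8.3e-05). Akt1, the isoform most tied to growth, was between 258 and 280 CPM in 2% HS (median 272) and between 223 and 282 in SD (median 244). Here 4 of 6 SD libraries lay below every 2% HS library, and 1, SD replicate 1, lay above all of them. The means of Akt1 were 272 ± 8.17 and 247 ± 21.03 CPM, so that Akt1 fell by 8.96%, a log2 fold change of -0.14 (SE 0.04, adjusted p = 0.0100). Akt1 varied most between the SD libraries, with a coefficient of variation of 8.50%, and least between the LEU libraries, at 0.742%.

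**Figure D2:**
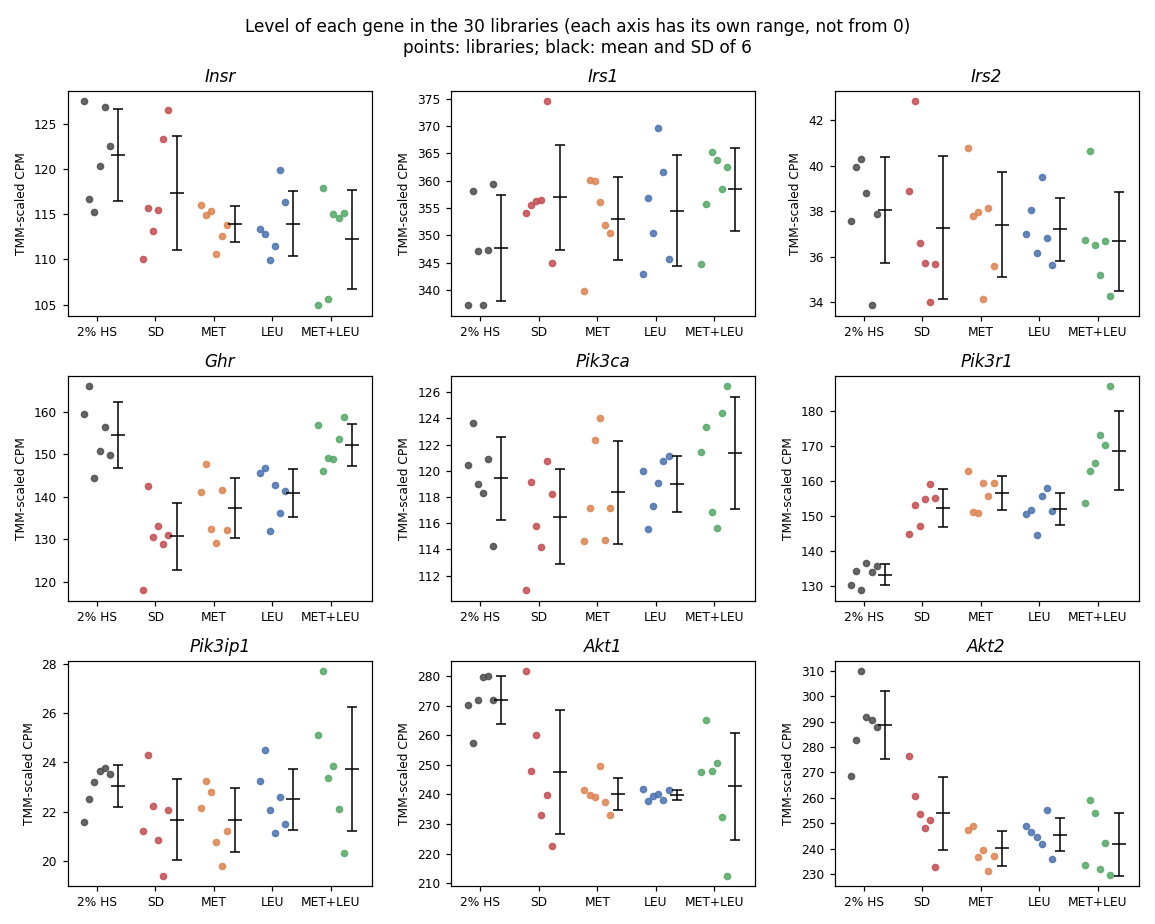
TMM-scaled CPM of each gene in each library, by group, with the mean and standard deviation of 6 libraries in black. Axes differ between genes and do not start at 0. Ghr is lower in all 6 SD libraries than in any 2% HS library, and Pik3r1 is higher.

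The balance of paired genes was also taken within each library, since a ratio of 2 genes does not depend on how libraries are scaled. The regulatory to catalytic ratio, Pik3r1 to Pik3ca in counts per exonic length, was between 0.976 and 1.07 in 2% HS (median 0.990) and between 1.146 and 1.22 in SD (median 1.18). All 6 SD libraries were higher. The log2 ratio differed by 0.23 (two-sided exact permutation test, p = 0.00216, the smallest that 6 against 6 libraries can give, adjusted p = 0.0173 over 8 tests). The ratios of Irs2 to Irs1, Akt2 to Akt1 and Pik3ip1 to Pik3ca differed by -0.07, -0.05 and -0.06 on the log2 scale (exact permutation tests, adjusted p = 0.480 each). Ratios of transcripts are not ratios of subunits in the enzyme, which were not measured here.

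**Figure D3:**
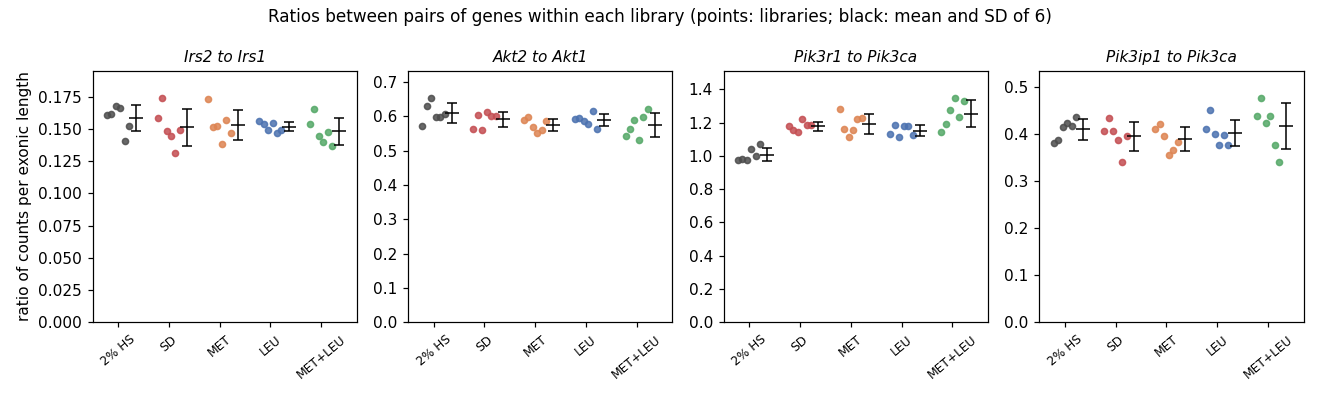
Ratios of counts per exonic length between pairs of genes, 1 point per library, with the mean and standard deviation of 6 in black and axes from 0. The ratio of Pik3r1 to Pik3ca lies between 0.976 and 1.07 in 2% HS and between 1.146 and 1.22 in SD, while the other ratios overlap between groups.

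The rest of the pathway was followed with 77 other genes in 7 lists, of which 68 were tested. In SD vs. 2% HS, 17 rose and 24 fell, or 60.3% of those tested, beside 27.8% of all genes called, 13.9% in each direction. The same shares of all genes stand as background to the count of each list in this comparison, and with so few genes a list its count is a description. The lists were chosen with earlier results of these data known, so the pooled share of 60.3% is a description too. None of the 8 Akt targets of glucose uptake and glycogen rose, and 6 fell, with a median log2 fold change of -0.59 against 0.00 over all genes. Slc2a4, the insulin-responsive glucose transporter, had a mean of 9.40 CPM in 2% HS and 2.44 in SD (log2 fold change -1.93, SE 0.15, adjusted p = 2.3e-14). Hk2, which phosphorylates glucose, was between 154 and 178 CPM in 2% HS and between 85.1 and 111 in SD (log2 fold change -0.75, SE 0.07, adjusted p = 1.9e-09), and Tbc1d4, a substrate of Akt that controls the transporter's traffic, had a log2 fold change of -0.78 (SE 0.11, adjusted p = 1.9e-07). Median log2 fold changes of the other 6 lists lay between -0.07 and 0.09.

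Around the growth hormone receptor, 5 of 8 listed genes were tested in SD vs. 2% HS, 2 rose and 2 fell. Igf1, the growth factor that growth hormone induces, was between 226 and 264 CPM in 2% HS and between 279 and 339 in SD (log2 fold change 0.33, SE 0.04, adjusted p = 1.3e-08), and Jak2, the kinase bound to the receptor, had a log2 fold change of 0.19 (SE 0.05, adjusted p = 0.00441). The transcription factors Stat5a (-0.26, SE 0.04, adjusted p = 5.4e-06) and Stat5b (-0.17, SE 0.04, adjusted p = 0.00128) fell. Socs2, a feedback inhibitor of the receptor, was at 0.02 (adjusted p = 0.676). The receptor's own transcript thus fell beside both Stat5 genes while Igf1 and Jak2 rose.

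Around the insulin receptor, 6 partners and inhibitors rose and 3 fell in SD vs. 2% HS, of 15 tested. The largest changes were in the adaptors Dok4 (0.77, SE 0.08, adjusted p = 1.3e-10) and Grb14 (0.65, SE 0.11, adjusted p = 3.7e-06), the latter an inhibitor of the receptor, and in the phosphatase Ptprf (-0.32, SE 0.04, adjusted p = 1.6e-08). Of 4 other PI3K subunits tested, the regulatory Pik3r3 rose (0.26, SE 0.07, adjusted p = 0.00152) and the regulatory Pik3r2 fell (-0.19, SE 0.05, adjusted p = 0.00158), so the rise of Pik3r1 was not shared by every regulatory subunit. Among 7 phosphatases that remove PIP3 or its products, Inpp4a (-0.25, adjusted p = 2.2e-04) and Inpp4b (-0.17, adjusted p = 5.1e-04) fell.

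Of 12 other Akt kinases and regulators, 3 rose and 3 fell in SD vs. 2% HS. Trib2 (0.88, SE 0.08, adjusted p = 5.7e-12) and Trib3 (-1.25, SE 0.23, adjusted p = 1.1e-04), pseudokinases that can bind Akt, moved in opposite directions, and Trib1 was at 0.21 (adjusted p = 0.00745). Of 17 FoxO factors and FoxO targets, 4 rose and 7 fell, with log2 fold changes of 1.54 for Txnip (adjusted p = 3.9e-13), -0.70 for Bnip3 (adjusted p = 2.3e-05) and -2.03 for Klf15 (adjusted p = 5.3e-07), which was at only 0.604 CPM in SD. The 2 muscle ubiquitin ligases on the list, which FoxO switches on, differed in direction: Trim63 was at 0.15 (adjusted p = 0.0214) and Fbxo32 at -0.13 (adjusted p = 0.0291).

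**Figure D4:**
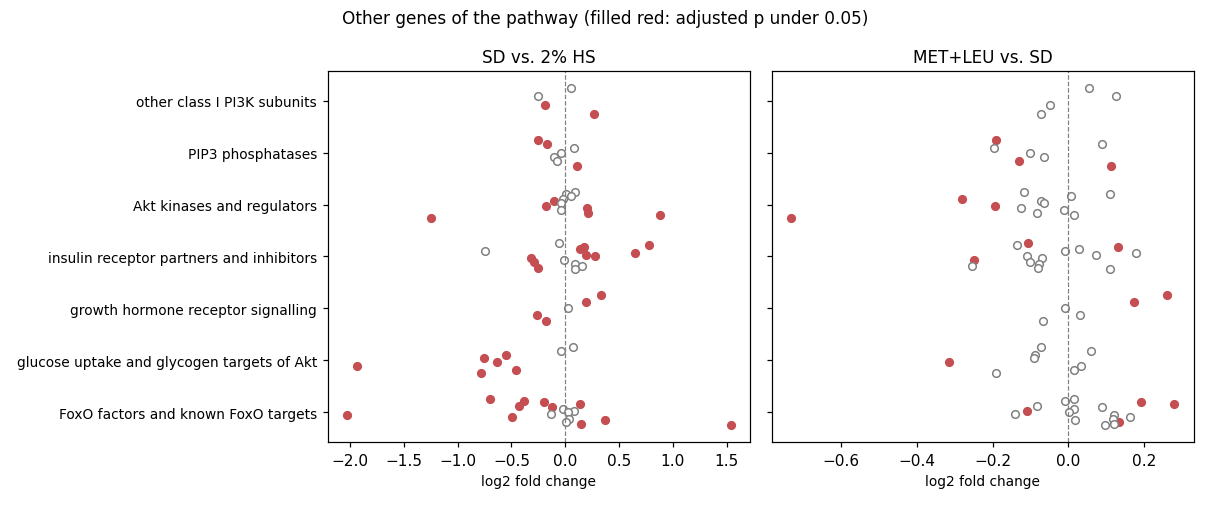
Log2 fold changes of the tested genes of the 7 pathway lists for 2 comparisons, SD vs. 2% HS on the left and MET+LEU vs. SD on the right, 1 point per gene, filled red where the adjusted p is under 0.05. The horizontal axes differ. In SD vs. 2% HS, 6 of the 8 glucose uptake and glycogen genes are filled and lie below 0.

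MET and LEU were each compared with SD to ask whether either compound alone moved these transcripts. Both comparisons, and that of MET+LEU, use the same 6 SD libraries. None of the 9 genes passed the test in MET vs. SD, where 0.157% of all genes were called, and none in LEU vs. SD, where 0.553% were. At an unadjusted p under 0.05 there was 1 gene in each: Akt2 in MET (240 ± 6.84 against 254 ± 14.5 CPM, log2 fold change -0.08, edgeR adjusted p = 0.442) and Ghr in LEU (141 ± 5.66 against 131 ± 7.91 CPM, log2 fold change 0.11, edgeR adjusted p = 0.281). DESeq2 and limma-voom also called 0 of the 9 in both. Ghr was between 129 and 148 CPM in MET (median 137) and between 132 and 147 in LEU (median 142), and both ranges overlapped that of SD. Pik3r1 was at 157 ± 4.80 CPM in MET and 152 ± 4.65 in LEU, beside 152 ± 5.34 in SD. Over the 9 genes the 95% intervals ran from -0.15 to 0.15 for MET and from -0.13 to 0.19 for LEU on the log2 scale.

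The combination was compared with SD to ask whether both compounds together moved these transcripts. In MET+LEU vs. SD, 2 of the 9 genes rose, Ghr and Pik3r1, and none fell, beside 18.4% of all genes called and 10.6% called higher. The median log2 fold change was 0.01 over the 9 genes and -0.01 over all genes tested. Both calls passed in 38 of 38 alternative analyses, with the correction for GC content and without MET+LEU replicate 6 among them. The summed level of the myoblast markers was lower in MET+LEU than in SD (medians of 286 and 327 CPM, with no overlap), and its part in the changes of Ghr and Pik3r1 was not tested. Within that sum the means of Mki67, Top2a, Ccnb1, Cdk1 and, slightly, Myf5 were lower in MET+LEU. The mean of Pax7 was higher there (153 against 147 CPM).

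Ghr was between 146 and 159 CPM in MET+LEU (median 151), above all 6 SD libraries, a separation that 5.34% of all genes showed. The mean of 152 ± 4.99 CPM was 16.5% above that of SD (log2 fold change 0.22, SE 0.04, adjusted p = 9.6e-05). Beside 2% HS, the Ghr libraries of MET+LEU overlapped those of serum-fed myotubes, and the difference was -0.02 with a 95% interval from -0.10 to 0.06 (adjusted p = 0.704). In the order of group means, 2% HS (154) was followed by MET+LEU (152), LEU (141), MET (137) and SD (131 CPM), and neighbours in this order overlapped.

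Pik3r1 was between 154 and 187 CPM in MET+LEU (median 168), and 5 of 6 libraries lay above every SD library. The mean was 169 ± 11.2 CPM, 10.7% above SD (log2 fold change 0.15, SE 0.04, adjusted p = 0.00296). This change added to the one in SD: against 2% HS, Pik3r1 in MET+LEU was 26.4% higher (log2 fold change 0.34, SE 0.04, adjusted p = 1.2e-10), with all 6 libraries above all 2% HS libraries. The highest Pik3r1 value came from MET+LEU replicate 6, and the smallest log2 fold change against SD when 1 library was left out was 0.11 (highest adjusted p = 0.0208). Pik3r1 and Ghr, which went opposite ways in SD, therefore both rose in MET+LEU. The ratio of Pik3r1 to Pik3ca had a median of 1.25 in MET+LEU and a log2 difference of 0.09 from SD, which did not pass (exact permutation test, p = 0.0606, adjusted p = 0.242). It passed when MET+LEU replicate 1 was left out (0.11, exact permutation test, adjusted p = 0.0346).

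The other 7 genes did not pass in MET+LEU vs. SD. Pik3ip1 was at 23.7 ± 2.53 CPM in MET+LEU (log2 fold change 0.14, 95% interval 0.01 to 0.26, edgeR adjusted p = 0.123), and Pik3ca at 121 ± 4.29 (0.06, adjusted p = 0.226). Akt2 was at 242 ± 12.4 CPM (-0.07, 95% interval -0.14 to 0.00, adjusted p = 0.180), which became a call without SD replicate 6 (-0.10, adjusted p = 0.0482). Akt1 was at 243 ± 18.1 CPM (-0.03, 95% interval -0.11 to 0.06, adjusted p = 0.701), and its libraries spread from 213, in replicate 6, to 265. Its transcript is the richest in G and C bases of the 9 (59.7%, against 40.9% for Ghr), and when a trend with GC content was taken out of each library, Akt1 turned to 0.09 (adjusted p = 0.0330) and Pik3ip1 passed as well (0.18, adjusted p = 0.0410). The direction of Akt1 against SD thus depended on that choice. With the GC correction Ghr (0.16) and Pik3r1 (0.12) had smaller log2 fold changes than without it, and both still passed. Insr (-0.06, adjusted p = 0.254), Irs1 (0.01, adjusted p = 0.919) and Irs2 (-0.02, adjusted p = 0.809) did not pass under any analysis run in this comparison.

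**Figure D5:**
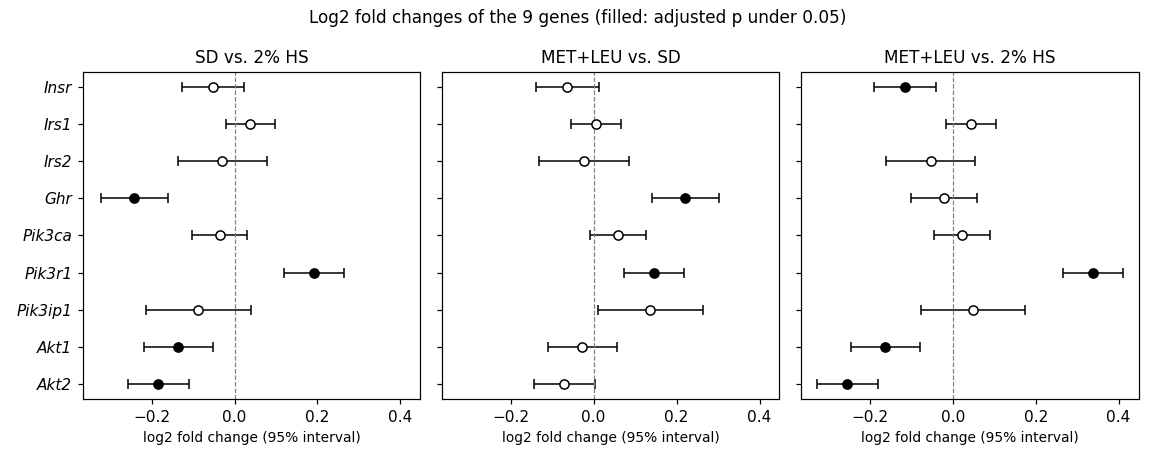
Log2 fold change with its 95% interval for the 9 genes in 3 comparisons, filled where the adjusted p is under 0.05. Ghr is at -0.24 in SD vs. 2% HS, 0.22 in MET+LEU vs. SD and -0.02 in MET+LEU vs. 2% HS, whereas Pik3r1 is above 0 in all 3.

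MET+LEU was also set beside 2% HS to see which transcripts still differed from serum-fed myotubes. Here 1 of the 9 genes was higher (Pik3r1) and 3 were lower (Akt2, Akt1 and Insr), beside 42.3% of all genes called (22.1% higher and 20.3% lower), and 2 did not overlap between the groups, beside 21% of all genes. All 6 Akt2 libraries of MET+LEU lay below those of 2% HS (log2 fold change -0.25, SE 0.04, adjusted p = 1.5e-07). Against 2% HS, Akt1 fell by 10.7% (log2 fold change -0.16, SE 0.04, adjusted p = 0.00119), with 5 of 6 libraries below the 2% HS range, and the GC correction left -0.08 (adjusted p = 0.0277). Insr was between 105 and 118 CPM in MET+LEU (median 115) and between 115 and 127 in 2% HS (median 121), and 5 of 6 libraries were below the 2% HS range (log2 fold change -0.11, SE 0.04, adjusted p = 0.0115). Irs1 was at 0.04 (adjusted p = 0.241) and passed only with the GC correction (0.07, adjusted p = 0.0435).

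The combination was finally set against each compound alone. In MET+LEU vs. LEU, Pik3r1 was the 1 gene of 9 that passed, and it was higher in MET+LEU (0.15, SE 0.04, adjusted p = 0.00933), beside 6.28% of all genes, 4.61% higher. The call was lost without MET+LEU replicate 6 (0.11, adjusted p = 0.0618), without LEU replicate 3 (0.12, adjusted p = 0.0624) and in a fit of these 2 groups alone (0.14, adjusted p = 0.0778). In MET+LEU vs. MET, Ghr was the 1 gene that passed (0.15, SE 0.04, adjusted p = 0.0144), beside 8.69% of all genes (5.54% higher), and its call was lost without MET replicate 3 (adjusted p = 0.0592), MET replicate 6 (adjusted p = 0.0529) or MET+LEU replicate 1 (adjusted p = 0.0508). Pik3r1 in that comparison was at 0.11 (adjusted p = 0.0532) and passed with DESeq2 (adjusted p = 0.0481). Ghr in MET+LEU vs. LEU was at 0.11 (adjusted p = 0.0796). With the GC correction Akt1 passed against LEU (0.12, adjusted p = 0.0120) and MET (0.10, adjusted p = 0.0274), where it was at 0.02 and 0.02 without it.

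Whether the combination differed from the sum of its parts was tested as an interaction of MET and LEU. None of the 9 genes passed, beside 0.0503% of all genes, and 0 passed with DESeq2 or limma-voom. Pik3r1, the 1 gene at an unadjusted p under 0.05, had an interaction of 0.11 on the log2 scale (SE 0.05, edgeR adjusted p = 0.527). That of Ghr was 0.04 with a 95% interval from -0.07 to 0.15 (adjusted p = 0.891). The rise of Ghr and Pik3r1 in MET+LEU is thus not shown to exceed the sum of the single compounds.

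Among the other pathway genes, 7 rose and 9 fell in MET+LEU vs. SD, of 68 tested. Their share of 23.5% lay near the 18.4% of all genes called, so the values below describe single genes and not the pathway. List medians lay between -0.10 for the phosphatases and 0.09 for the FoxO list. Beside Ghr, Igf1 rose to between 344 and 388 CPM from between 279 and 339 in SD (log2 fold change 0.26, SE 0.04, adjusted p = 1.4e-05), and Jak2 had a log2 fold change of 0.17 (SE 0.05, adjusted p = 0.0127), which limma-voom did not call. Igf1 also passed against LEU (0.16, adjusted p = 0.0169) and against MET (0.16, adjusted p = 0.00954). The FoxO target list held 3 genes that rose, Cited2 (0.28, SE 0.05, adjusted p = 2.8e-05), the cell cycle inhibitor Cdkn1b (0.19, SE 0.05, adjusted p = 0.00430) and the mitochondrial superoxide dismutase Sod2 (0.14, SE 0.04, adjusted p = 0.00707), and 1 that fell, Foxo3. Of the Akt regulators 3 fell, Trib3 (-0.73, SE 0.26, adjusted p = 0.0488), Mlst8 (-0.28, SE 0.07, adjusted p = 0.00451) and Phlpp1 (-0.19, SE 0.06, adjusted p = 0.0116), and of the glucose genes 1 fell, the transporter Slc2a1 (-0.32, SE 0.10, adjusted p = 0.0240). The Trib3 call was lost in 20 of 30 fits that left out 1 library, and also without the filter on low counts. Over the 30 fits its log2 fold change ran from -0.94 to -0.53. Slc2a4 was at 0.03 (adjusted p = 0.924), so the transcript that was most reduced on its list in SD did not pass in either direction. Among insulin receptor partners and inhibitors, Enpp1 was higher (0.13, adjusted p = 0.0125) and Sh2b1 (-0.25, adjusted p = 0.00638) and Cbl (-0.11, adjusted p = 0.0291) were lower. Of the phosphatases, Inpp4a was at -0.19 (adjusted p = 0.0102) and Inppl1 at -0.13 (adjusted p = 0.0210). Of the 16 genes of this comparison called by edgeR's test, 6 were left when only these 2 groups were fitted, and the calls of Trib3, Phlpp1, Slc2a1, Sod2 and Inppl1 were among those lost with the GC correction. Igf1 and Cited2 passed in every analysis run.

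For either compound alone against SD, 1 of the 68 pathway genes was called, or 1.47%. With MET, Gys1, the muscle glycogen synthase, fell (-0.19, SE 0.04, adjusted p = 0.0137), beside 0.157% of all genes called. With LEU, Cited2 rose (0.24, SE 0.05, adjusted p = 0.00473), beside 0.553% of all genes called. Few genes of any kind were called here, so these counts describe single genes and not the pathway.

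For each of the 9 genes, the genes with the most similar levels over the 30 libraries were listed by Pearson's r of log2 CPM, as a description: the libraries share 5 conditions, depth and base composition, so part of any likeness comes from the groups. Akt2 was most like Actc1, the cardiac actin of young muscle (r = 0.936), Ctrb1 (0.934) and Aif1l (0.926), and Pik3r1 was most like Aff4 (0.928), Sema3a (0.926) and the mesenchymal factor Prrx1 (0.926). With group means removed, these r values came to 0.779, 0.754 and 0.679 for Akt2 and 0.682, 0.769 and 0.705 for Pik3r1. For Akt1 the most similar genes were Ltbp3 (0.913), the translation elongation factor Eef2 (0.897) and Pbxip1 (0.890), and their r values were 0.886, 0.854 and 0.825 when group means were removed. Ghr was most like Swap70 (0.852), the selenium carrier Selenop (0.831) and Ctxn3 (0.820), which came to 0.6247, 0.479 and 0.512 within groups. For Insr, Irs1, Irs2, Pik3ca and Pik3ip1 the highest r was between 0.661 and 0.768, with Qtrt2, D630045J12Rik, St3gal3, Gm45871 and Nipsnap2 in first place.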

How the data were processed

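Raw counts of reads per Ensembl gene, whole numbers without normalization, were deposited by the authors for 30 libraries of C2C12 myotubes in 5 groups of 6. The submitters' processing notes name cutadapt 1.16, STAR 2.7.6a, featureCounts 1.6.3, DESeq2 1.30.1 and GRCm38. The annotation release, the strand setting and the treatment of reads that map to several places are not given in the sources used here, and either of the last could move counts of overlapping or repeated genes. Stranded libraries came from Ribo-Zero total RNA read at 150 × 150 bases.

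Genes were named with GENCODE M21 (55227 identifiers matched). In R 4.3.3, edgeR 4.0.16 kept 15907 genes (filterByExpr, minimum count 10, minimum total 15), scaled libraries by TMM and fitted 1 mean per group to all 30 libraries. The 8 contrasts were tested with the robust quasi-likelihood F test, adjusted by Benjamini-Hochberg over all genes. Levels are TMM-scaled CPM, divided by exonic length between genes. Ratios were compared by exact permutation tests (SciPy 1.17.1). The 9 genes, the 7 pathway lists and the tests were chosen with earlier results of these data known. All 9 genes were named, with up to 3 called genes of each list, those furthest from 0 on the log2 scale, for SD vs. 2% HS as well as MET+LEU vs. SD, and the 3 genes most like each of the 9. Some genes that this rule names are not reported here. Socs2, Stat5b, Foxo3, Trim63, Fbxo32 and Gys1, and Igf1, Slc2a4 and Cited2 in further comparisons, were named after their values were seen. Alternatives were DESeq2 size factors, upper-quartile normalization, DESeq2 1.42.0, limma-voom (limma 3.58.1), no filter, only the groups compared, a replicate block and leaving out each library. A correction for GC content, the length of the longest transcript and the analyses of pathway genes were added after seeing the data. With library totals between 12784960 and 19604103, counts of the 9 genes were between 251 and 6662 per library. The fitting code was tested on simulated data. No pair of libraries held identical counts (0 pairs).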

Additional observations from a re-analysis of the deposited data

How the results depend on the processing

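Of the 12 calls among the 9 genes, 10 kept their direction and passed in all 38 alternatives, and the other 2, Pik3r1 in MET+LEU vs. LEU and Ghr in MET+LEU vs. MET, lost the threshold in 3 each, as given beside them. None of the 12 changed sign. The cause of the changes below was not tested, beyond that fits of fewer libraries have fewer degrees of freedom. Standard errors of the 9 genes were between 0.03 and 0.06 on the log2 scale in the 7 comparisons of groups. A difference must be well above its standard error to pass with 6 libraries a group, so genes that did not pass may still differ. The correction for GC content and the alternatives for the pathway genes were chosen after seeing the data.

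Numbers of the 9 genes called moved in MET+LEU vs. SD (4 with the GC correction, 2 to 3 leaving out a library), in MET+LEU vs. 2% HS (5 with the GC correction), in MET+LEU vs. LEU (0 with only the groups compared, 2 with the GC correction, 0 to 1 leaving out a library) and in MET+LEU vs. MET (2 with DESeq2, the replicate block or the GC correction, 0 to 2 leaving out a library). Of the pathway genes in MET+LEU vs. SD, 10 were called by limma-voom and 6 with only the groups compared. Over all genes, MET vs. SD gave 127 calls with DESeq2, 108 with limma-voom, 105 without the filter, 52 with the block and 46 with the GC correction (4 to 160 leaving out a library). LEU vs. SD gave 154, 216 and 166 with the first 3 of these and 197 with only the groups compared (43 to 269). MET+LEU vs. SD gave 1857 with limma-voom and 1422 with only the groups compared, MET+LEU vs. LEU 311 (396 to 1293 leaving out a library), and MET+LEU vs. MET 589 (726 to 1558). The interaction gave 5 with DESeq2 size factors, 4 with upper-quartile scaling, 34 with DESeq2, 19 with limma-voom, 31 without the filter, 1 with only the groups compared and 17 with the block (1 to 11).

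Replicate numbers did not pair the libraries: deviations from group means correlated by 0.0157 on average between libraries of the same number (from -0.0913 to 0.142) and by -0.00314 between others. With a replicate block, Pik3r1 in MET+LEU vs. MET passed (0.11, adjusted p = 0.0327), no call of the 9 genes was lost, and the log2 ratio of Pik3r1 to Pik3ca in SD vs. 2% HS, at 0.23, could not pass, since the exact sign-flip test of 6 pairs gives no p below 0.03125 before adjustment over 8 tests (adjusted p = 0.242). Leaving out 1 library, that ratio in MET+LEU vs. SD ranged from 0.0643 to 0.112, passing without MET+LEU replicate 1, and Irs2 to Irs1 from -0.0675 to 0.0142.

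Sign changes were confined, in the analyses run, to differences that edgeR's test did not call. With upper-quartile scaling they were Irs1 in MET+LEU vs. SD (-0.00916) and vs. LEU (-0.00356), Akt1 vs. LEU (-0.00115), Akt2 vs. MET (-0.00567), Pik3ca in MET+LEU vs. 2% HS (-0.00253) and in the interaction (-0.0149), and Pik3r1 in LEU vs. SD (0.00175). DESeq2 size factors changed Pik3ip1 in MET vs. SD (0.000857), Pik3r1 in LEU vs. SD (0.00193) and Pik3ca in the interaction (-0.00687), and DESeq2 the same 3 (0.000749, 0.00235 and -0.00915). Limma-voom changed Irs2 in LEU vs. SD (0.00625), Akt1 in MET+LEU vs. SD (0.0226) and Pik3ca in the interaction (-0.00890). Without the filter they were Pik3ip1 in MET vs. SD (0.00152), Pik3r1 in LEU vs. SD (0.000538), Irs1 in MET+LEU vs. SD (-0.00127), Akt2 in MET+LEU vs. MET (-0.00105) and Pik3ca in the interaction (-0.00979). With only the groups compared they were Pik3ip1 in MET vs. SD (0.00232), Pik3r1 in LEU vs. SD (0.000570) and Pik3ca in the interaction (-0.00736). The GC correction changed Akt1 in MET+LEU vs. SD, which then passed (0.0900, adjusted p = 0.0330), Akt2 in MET+LEU vs. LEU (0.0332), Pik3ip1 in MET vs. SD (0.0192), Pik3ca in SD vs. 2% HS (0.0156), MET+LEU vs. LEU (-0.0101) and the interaction (-0.0139), and Irs2 in LEU vs. SD (0.00975), MET+LEU vs. SD (0.0591), 2% HS (0.0104), LEU (0.0494) and MET (0.0224) and the interaction (0.0127).

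Leaving out 1 library gave ranges across 0 for Akt1 in MET+LEU vs. LEU (-0.0164 to 0.0454), vs. MET (-0.0182 to 0.0440) and vs. SD (-0.0625 to 0.00563), Akt2 in MET+LEU vs. MET (-0.0197 to 0.0161), Insr in the interaction (-0.0161 to 0.0365), Irs1 in LEU vs. SD (-0.0206 to 0.00723), MET vs. SD (-0.0222 to 0.00135), MET+LEU vs. LEU (-0.00374 to 0.0191) and vs. SD (-0.0104 to 0.0131), Irs2 in LEU vs. SD (-0.0263 to 0.0403), MET vs. SD (-0.0211 to 0.0484) and MET+LEU vs. SD (-0.0619 to 0.0126), Pik3ca in the interaction (-0.0188 to 0.0188), Pik3ip1 in MET vs. SD (-0.0270 to 0.0351) and MET+LEU vs. 2% HS (-0.00952 to 0.0789), and Pik3r1 in LEU vs. SD (-0.0149 to 0.0145).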
